A study of Mus musculus with 4 samples.

Results

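The EGF receptor family and its ligands are described here through 10 genes chosen by name: the receptors Egfr, Erbb2, Erbb3 and Erbb4 and the ligands Areg, Ereg, Hbegf, Tgfa, Btc and Epgn. Values were at hand for 9 of them, among 17574 genes in all, and Erbb4 was not analysed here. The anti-CD71 group was given antibody to CD71 (the transferrin receptor, which carries iron into cells) on days 6 and 9, and the other group is labelled Control with no further detail. Tumours of both groups were dated day 10 and profiled by bulk RNA sequencing, in 2 anti-CD71 and 2 control libraries. All came from SCC7, a murine head and neck squamous carcinoma (HNSCC) line of WT genotype, grown under the back skin of C3H/HeN hosts. The site under the skin is not the organ the cancer models, and dose, the control injection and the number of mice per library are not given in the labels. P-values therefore measure the spread between these libraries, which may be technical.

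Values are TPM, a share of each library's transcripts, which is scaled by transcript length and so allows levels of different genes to be set side by side. The read depth behind them is unknown. For anti-CD71 replicate 1 a partial list of 13586 transcripts was used, against 59881 in each other library, and 0 of the family's transcripts were among them. Every value of a family member below therefore comes from anti-CD71 replicate 2 and the 2 controls, with no replicate of the treated group. Tests ran limma on log2(TPM + 1) over the 11982 genes that reached 1 TPM in 2 of the 3 libraries, and calls needed an adjusted p (Benjamini-Hochberg) below 0.05. The fit lends the single treated library the variance of the controls. It also draws each gene's variance towards a trend over all tested genes. For 1563 genes comparable in all 4 libraries, log2 differences between replicates had an SD of 0.294 within the anti-CD71 group and 0.222 within the control group, so the standard errors and 95% intervals given here may be too narrow.

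EGFR and its relatives are receptor tyrosine kinases of epithelial cells that pair when a ligand binds and switch on the RAS-ERK and PI3K-AKT pathways. The ligands are made as membrane-bound precursors, and metalloproteases cut them free. ERBB2 binds no known ligand and serves as a partner, while ERBB3 has a weak kinase and signals through such partners. EGFR is a therapeutic target in head and neck squamous carcinoma.

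No family member passed the test. Of the 8 members that met the filter, 0 were called, against 2.86% of all 11982 tested genes. An unadjusted p under 0.05 was reached by 2 of the 8, Egfr and Btc, and by 24.7% of all tested genes. The median log2 change was 0.12 over the 8 members and -0.01 over all tested genes. Anti-CD71 replicate 2 lay above both controls for 5 of the 8 members and below both for 1, against 39.5% and 42.5% of all tested genes.

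**Figure D1:**
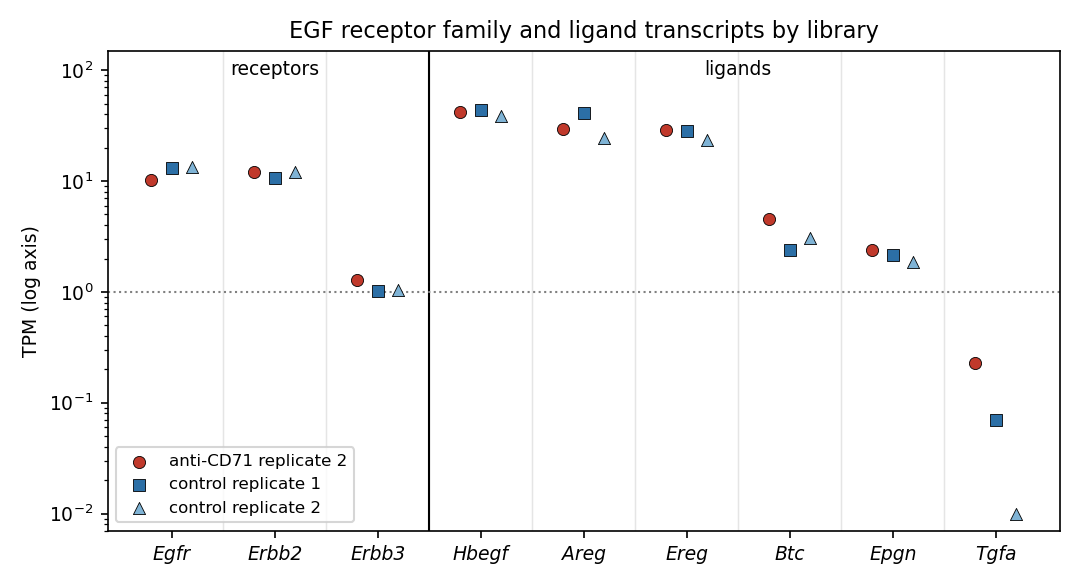
TPM of the 9 family genes in each library, on a log axis, with receptors on the left and ligands on the right. Each point is 1 library, anti-CD71 replicate 2 first and the 2 controls after it, and the dotted line marks 1 TPM. The points of a gene lie close together except for Areg, Btc and Tgfa, and Tgfa is below 1 TPM in each library.

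Among the receptors, Egfr lies on chromosome 11 from 16752203 to 16913907 in GRCm38.p6. It stood at 10.3 TPM in anti-CD71 replicate 2, against 13.2 and 13.3 TPM in the controls. The treated library was below both controls, which differed from each other by little. The log2 change was -0.34 (SE 0.10, 95% interval -0.60 to -0.08), and the gene was not called (limma adjusted p = 0.138). Leaving out either control gave -0.34 each time, as a value with no test.

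Egfr was listed as 2 transcripts. The GENCODE annotation of the same build gives the long one 28 coding exons and 1210 codons, and the short one 16 coding exons and 655 codons. The long one encodes the full receptor, and the short one a form that ends before the kinase domain. The long transcript had 9.54 TPM in anti-CD71 replicate 2, against 12.2 and 11.9 TPM in the controls. The short one had 0.72 TPM in anti-CD71 replicate 2, against 1.06 and 1.40 TPM in the controls, so both were lower in the treated library. The short transcript made up 7.02% of Egfr TPM in anti-CD71 replicate 2, against 8.01% and 10.5% in the controls. How reads shared by the 2 transcripts were divided is not known.

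Erbb2, the partner receptor on chromosome 11 from 98412484 to 98437716, had 12.0 TPM in anti-CD71 replicate 2, against 10.8 and 11.9 TPM in the controls. The treated value was level with the higher control, and the log2 change of 0.08 (95% interval -0.22 to 0.38) did not pass (limma adjusted p = 0.715). Erbb3, on chromosome 10 from 128567523 to 128589635, was far lower, at 1.28 TPM in anti-CD71 replicate 2, against 1.02 and 1.05 TPM in the controls. Its log2 change was 0.16 (95% interval -0.42 to 0.74, limma adjusted p = 0.686). The ratio of Egfr to Erbb2 TPM was 0.85 in anti-CD71 replicate 2, against 1.23 and 1.11 in the controls. The order of these 2 receptors was thus turned in the treated library, without a call for either gene.

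Among the ligands, Hbegf, which encodes the heparin-binding EGF-like growth factor, was the most abundant by mean TPM. It lies on chromosome 18 from 36504927 to 36515805. It stood at 41.9 TPM in anti-CD71 replicate 2, against 43.4 and 38.8 TPM in the controls, so the treated value fell between them. The log2 change was 0.03 (95% interval -0.24 to 0.30, limma adjusted p = 0.882).

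Areg encodes amphiregulin, a ligand of EGFR that epithelial and several immune cell types release. It had 29.6 TPM in anti-CD71 replicate 2, against 41.5 and 24.5 TPM in the controls. The controls were spread more widely than for any other tested member, and the treated value lay between them. The log2 change was -0.10 (SE 0.30, 95% interval -0.87 to 0.66, limma adjusted p = 0.851). Its sign rested on 1 control: it was 0.26 without control replicate 1 and -0.47 without control replicate 2.

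Ereg, which encodes epiregulin, had 29.1 TPM in anti-CD71 replicate 2, against 28.3 and 23.7 TPM in the controls. Its log2 change was 0.16 (95% interval -0.17 to 0.50, limma adjusted p = 0.485). The treated library exceeded the higher control by less than the controls differed from each other. The ratio of Areg to Ereg was 1.02 in anti-CD71 replicate 2, against 1.47 and 1.04 in the controls.

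Btc, which encodes betacellulin, a ligand of EGFR and ERBB4, showed the largest absolute log2 change of the 8 tested members. It stood at 4.58 TPM in anti-CD71 replicate 2, against 2.38 and 3.07 TPM in the controls. The treated library was above both, by more than the controls differed. The log2 change was 0.59 (SE 0.19, 95% interval 0.10 to 1.08), and the gene was not called (limma adjusted p = 0.151). Its low level makes this value depend on the pseudocount, with 0.74 at a pseudocount of 0.1 TPM.

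Epgn, which encodes epigen, had 2.37 TPM in anti-CD71 replicate 2, against 2.13 and 1.86 TPM in the controls (log2 change 0.17, 95% interval -0.32 to 0.66, limma adjusted p = 0.616). Tgfa, which encodes transforming growth factor alpha, was near 0, with 0.23 TPM in anti-CD71 replicate 2, against 0.07 and 0.01 TPM in the controls. It lies on chromosome 6 from 86195038 to 86275744 and did not meet the filter, so it was not tested. With no read depth, values this low have no known counting error.

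**Figure D2:**
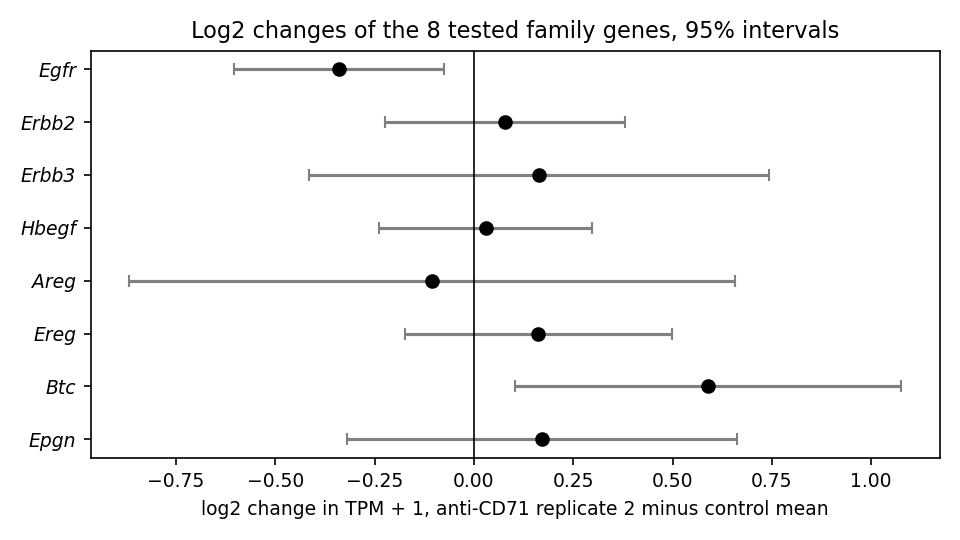
Log2 change of each of the 8 tested family genes in TPM + 1, anti-CD71 replicate 2 minus the mean of the 2 controls. Points are limma estimates and bars their 95% intervals, which rest on the spread of the controls and on a variance trend over all tested genes. The bars of Egfr and Btc do not reach 0, those of the other 6 genes do, and none of the 8 genes was called after adjustment.

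By mean TPM over the 3 complete libraries, the order was Hbegf (41.4), Areg (31.9), Ereg (27.0), Egfr (12.3), Erbb2 (11.6), Btc (3.34), Epgn (2.12), Erbb3 (1.12) and Tgfa (0.10). The ranges of the 3 libraries overlapped between Hbegf and Areg, between Areg and Ereg, and between Egfr and Erbb2. Within each library Hbegf stood above Areg and Areg above Ereg, while Egfr and Erbb2 changed order between libraries. The other steps had no overlap, though Btc and Epgn were parted by little, with a lowest Btc value of 2.38 TPM and a highest Epgn value of 2.37 TPM. Hbegf stood above 79.5% of the 17574 genes, Egfr above 54.9% and Tgfa above 17.5%.

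The 6 ligands summed to 108 TPM in anti-CD71 replicate 2, against 118 and 91.9 TPM in the controls. Hbegf, Areg and Ereg made up 93.3% of that sum in anti-CD71 replicate 2, against 96.1% and 94.6% in the controls. The 3 receptors with values summed to 23.6 TPM in anti-CD71 replicate 2, against 25.0 and 26.3 TPM in the controls. The ratio of the sums was 4.58 in anti-CD71 replicate 2 and 4.71 and 3.50 in the controls, so it lay between the controls.

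Epgn, Ereg, Areg and Btc lie on chromosome 5 with no other protein-coding gene between them in the table used, within a stretch of 375.5 kb from 91027517 to 91402994. Epgn spans 91027517 to 91035212, Ereg 91074617 to 91093649, Areg 91139599 to 91148432 and Btc 91357261 to 91402994. The start of Ereg overlaps Gm19610, a gene with no values here. The stretch begins 121.6 kb beyond the end of Cxcl2, the last of a row of chemokine genes. Within 500 kb on either side the RefSeq gene table of the same build held 32 genes, of which 14 had values and 10 were tested. Of the 10, Cxcl1 and Cxcl3 were called higher in anti-CD71 replicate 2, against 0.476% of all tested genes called higher, and 0 were called lower.

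Cxcl1, a chemokine that attracts neutrophils, had 71.6 TPM in anti-CD71 replicate 2, against 10.8 and 12.4 TPM in the controls (log2 change 2.53, 95% interval 2.23 to 2.83, limma adjusted p = 0.00412). Cxcl3, of the same family, had 12.3 TPM in anti-CD71 replicate 2, against 1.54 and 1.10 TPM in the controls (log2 change 2.53, limma adjusted p = 0.0145). Cxcl2, another such chemokine, was listed for all 4 libraries, with 52.2 and 29.7 TPM in the anti-CD71 libraries, against 3.21 and 7.19 TPM in the controls (log2 change 2.78, limma adjusted p = 0.0387 over 4 libraries and 0.0511 over 3). Among the 1563 genes tested over 4 libraries, 4.29% were called, 0.832% higher and 3.45% lower (13 and 54 genes, or 21 and 36 with median scaling). Across the alternatives the adjusted p ranged from 0.00435 to 0.134 for Cxcl1 and from 0.018 to 0.171 for Cxcl3. The 6 neutrophil marker genes with values, of which 3 were tested, summed to 509 TPM in anti-CD71 replicate 2, against 17.1 and 11.2 TPM in the controls. Of these genes, 6 of 6 lay above both controls, where 39.5% of all tested genes lay. The part of neutrophils in the chemokine values was not tested.

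Mthfd2l, a folate enzyme gene between the chemokines and the ligands, had 11.8 TPM in anti-CD71 replicate 2, against 9.82 and 9.12 TPM in the controls (log2 change 0.29, limma adjusted p = 0.212). The upper ends of the 95% intervals were 0.66 for Epgn, 0.50 for Ereg, 0.66 for Areg and 1.08 for Btc, each below the lower end of 2.23 for Cxcl1 and of 2.03 for Cxcl3. Of the other tested chemokine genes, Pf4 had a log2 change of 0.70 (95% interval 0.39 to 1.01, limma adjusted p = 0.0572) and Cxcl5 of 1.09 (95% interval -0.12 to 2.29, limma adjusted p = 0.235), and both intervals overlapped those of ligands. The interval of Cxcl2 was 1.40 to 3.38. The difference between genes was not itself tested.

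**Figure D3:**
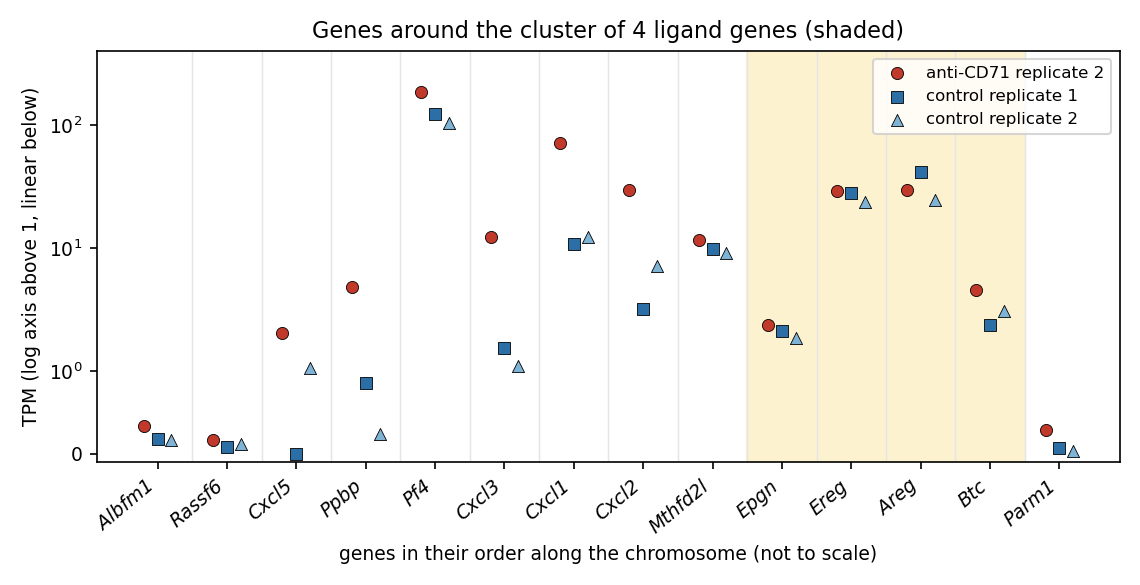
TPM of the protein-coding genes with values around the 4 clustered ligand genes, which are shaded, in their order along the chromosome and not to scale. Each point is 1 library, with the anti-CD71 library left of the 2 controls. Cxcl3 and Cxcl1 have the anti-CD71 point far above both controls, while the points of Epgn, Ereg and Areg lie close to or between those of the controls.

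Promoters of 3 of the clustered ligands and of Cxcl1, outside the stretch, are shown. No promoter entry was matched for Ereg, the remaining ligand of the cluster. Cxcl1 was picked after its values were seen, and whether promoter sequence bears on any of the values was not tested. Each sequence is the 250 bases before the annotated start, from RefSeq, GRCm38.p6, 5′ to 3′ on the gene's strand. Areg is on the plus strand at chr5:91139349-91139598, Epgn on the plus strand at chr5:91027267-91027516, Btc on the minus strand at chr5:91402995-91403244 and Cxcl1 on the plus strand at chr5:90890995-90891244. Capitals mark matches on either strand to 5 motifs that were searched: a TATA box (TATAAA), a cAMP response element (TGACGTCA), an AP-1 site (TGANTCA), a GC box (GGGCGG) and a form of the NF-kappa-B site (GGG and TTTCC with any 2 bases between them).
Areg: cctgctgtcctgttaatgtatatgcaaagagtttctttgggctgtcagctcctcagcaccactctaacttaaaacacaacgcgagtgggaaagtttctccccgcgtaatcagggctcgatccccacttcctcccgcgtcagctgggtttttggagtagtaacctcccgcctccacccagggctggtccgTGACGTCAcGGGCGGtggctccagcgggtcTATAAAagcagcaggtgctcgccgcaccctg
Epgn: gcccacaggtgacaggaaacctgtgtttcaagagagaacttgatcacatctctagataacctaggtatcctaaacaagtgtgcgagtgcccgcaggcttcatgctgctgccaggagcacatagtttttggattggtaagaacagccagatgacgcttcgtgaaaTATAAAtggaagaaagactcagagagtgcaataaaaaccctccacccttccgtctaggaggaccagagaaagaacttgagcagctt
Btc: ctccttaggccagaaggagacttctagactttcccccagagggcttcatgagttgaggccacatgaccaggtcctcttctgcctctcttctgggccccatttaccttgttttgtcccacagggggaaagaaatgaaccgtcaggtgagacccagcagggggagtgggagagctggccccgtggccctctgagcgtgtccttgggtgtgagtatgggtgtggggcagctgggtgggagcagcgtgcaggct
Cxcl1: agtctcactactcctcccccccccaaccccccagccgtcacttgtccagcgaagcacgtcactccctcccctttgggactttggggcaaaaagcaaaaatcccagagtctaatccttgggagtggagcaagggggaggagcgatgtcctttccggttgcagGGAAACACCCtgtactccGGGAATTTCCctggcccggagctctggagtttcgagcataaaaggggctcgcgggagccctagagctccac

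The Areg window held a cAMP response element that began 61 bases before the start, a GC box at 52 bases and a TATA box at 31 bases. The element is rare, with a match in 1.55% of 32841 promoter windows of this length, against 32.75% for the GC box and 12.37% for the TATA box. The Epgn window held a TATA box at 86 bases, and the Btc window matched none of the 5 motifs. The Cxcl1 window held 2 matches to the NF-kappa-B form, which 1.41% of all windows hold and none of the 3 ligand windows shown does. The AP-1 letters, present in 6.75% of all windows, were in none of the 4. No matches overlapped in the windows shown. A match describes letters and not binding, and the data here do not measure binding.

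The Egfr and Erbb2 windows held no match to the TATA box or the cAMP response element. The Egfr window on the plus strand at chr11:16751953-16752202 held 1 GC box, 9 bases before the start and on the other strand, in capitals here.
Egfr: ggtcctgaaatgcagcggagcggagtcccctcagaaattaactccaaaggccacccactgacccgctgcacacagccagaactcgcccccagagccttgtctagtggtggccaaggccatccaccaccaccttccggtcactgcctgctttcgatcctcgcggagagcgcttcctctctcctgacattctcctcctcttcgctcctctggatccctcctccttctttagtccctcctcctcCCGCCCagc
Its share of G and C was 60.8%, against a median of 52.4% over all windows, 57.2% for Areg, 46.8% for Epgn and 59.6% for Btc. Of the 10 family genes, 7 had a promoter entry.

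The wider pathway was followed through 6 lists with 95 genes, of which 85 were tested and 3 called, against 2.86% of all tested genes. An unadjusted p under 0.05 was reached by 22 of the 85, against 24.7% of all tested genes. Called genes were 1 of 23 negative regulators, 2 of 16 ERK-responsive transcripts, 1 gene being in both lists, and 1 of 14 other receptor tyrosine kinases. The lists of other ligands, of ligand release and of adaptors and kinases had 0 calls among 2, 10 and 25 tested genes.

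Of the remaining ligands, Nrg1, a neuregulin that binds ERBB3 and ERBB4, had 5.43 TPM in anti-CD71 replicate 2, against 8.02 and 5.28 TPM in the controls (log2 change -0.23, limma adjusted p = 0.590). Nrg4, which binds ERBB4, had 1.48 TPM in anti-CD71 replicate 2, against 1.35 and 1.49 TPM in the controls (log2 change 0.04, limma adjusted p = 0.933). Egf itself was below 1 TPM in each complete library, at 0.67 TPM in anti-CD71 replicate 2, against 0.99 and 0.86 TPM in the controls, and was not tested.

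The list of ligand release held the metalloproteases and rhomboid-like proteins that free the ligands. Of its 10 tested genes, 9 had a log2 change below 0, with a median of -0.20 beside -0.01 over all tested genes. Whether this list as a whole differed from all tested genes was not tested. Adam17, the main protease for amphiregulin, epiregulin and heparin-binding EGF, had 36.7 TPM in anti-CD71 replicate 2, against 42.7 and 44.7 TPM in the controls (log2 change -0.25, limma adjusted p = 0.177). Adam15 had 113 TPM in anti-CD71 replicate 2, against 130 and 151 TPM in the controls (log2 change -0.31, limma adjusted p = 0.175). Both lay below the 2 controls, and neither was called. Rhbdf1, named after its values were seen, helps ADAM17 to mature. It was listed in part for all 4 libraries, through transcripts with 85.27% of its TPM, and was not tested over 4. Over those transcripts it had 34.3 and 34.9 TPM in the anti-CD71 libraries, against 39.5 and 41.4 TPM in the controls. Over 3 libraries it was not called (log2 change -0.21, limma adjusted p = 0.219).

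Adaptors and kinases had a median log2 change of -0.02 over 25 genes, and 14 of them were below 0. Stat3, a transcription factor downstream of EGFR and of cytokine receptors, had the smallest adjusted p, with 72.0 TPM in anti-CD71 replicate 2, against 89.8 and 87.5 TPM in the controls (log2 change -0.30, limma adjusted p = 0.110). Gab2, a docking adaptor, had 9.19 TPM in anti-CD71 replicate 2, against 11.5 and 12.7 TPM in the controls (log2 change -0.36, limma adjusted p = 0.155). Over 4 libraries 3 genes of this list were tested, named here for that reason, Sos1 (log2 change 0.01), Map2k1 (log2 change 0.06) and Plcg1 (log2 change -0.24), and 0 were called.

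Among the negative regulators, Spry4, a Sprouty protein that is induced by ERK and restrains it, fell. It had 24.5 TPM in anti-CD71 replicate 2, against 40.8 and 39.9 TPM in the controls (log2 change -0.70, SE 0.09, 95% interval -0.92 to -0.47, limma adjusted p = 0.0343), where 2.39% of all tested genes were called lower. The call was lost with no filter on low values, with a filter of 1 TPM in 1 library and with no trend in the variance prior, with adjusted p from 0.0349 to 0.146 over the alternatives. The list's median log2 change was -0.12, and 17 of 23 genes lay below 0. Again, whether the list as a whole differed from all tested genes was not tested.

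Errfi1, Dusp5 and Rnf41 are named after their values were seen. Errfi1 encodes MIG6, which binds and blocks the EGFR kinase. It had 84.3 TPM in anti-CD71 replicate 2, against 115 and 125 TPM in the controls (log2 change -0.50, limma adjusted p = 0.0591), below both controls and not called. Dusp5, a nuclear ERK phosphatase, was listed for all 4 libraries. It had 26.8 and 25.4 TPM in the anti-CD71 libraries, against 39.1 and 34.2 TPM in the controls. Its log2 change over 4 libraries was -0.47 (SE 0.09) and it was not called (limma adjusted p = 0.0554). Rnf41, a ubiquitin ligase for ERBB3, was the other negative regulator tested over 4 libraries, with 10.5 and 9.14 TPM in anti-CD71 libraries, against 9.50 and 10.7 TPM in the controls (log2 change -0.04).

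Dusp6, the cytoplasmic ERK phosphatase, lay between the controls. It had 209 TPM in anti-CD71 replicate 2, against 195 and 226 TPM in the controls (log2 change -0.01, 95% interval -0.28 to 0.27, limma adjusted p = 0.978). Lrig1, which drives EGFR to degradation, also lay between the controls, with 47.9 TPM in anti-CD71 replicate 2, against 47.6 and 53.7 TPM in the controls. Both genes too are named after their values were seen.

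The ERK-responsive transcripts moved in both directions, with a median log2 change of 0.05 and 9 of 16 genes above 0. Ier3, an early response gene, rose to 100 TPM in anti-CD71 replicate 2, against 59.7 and 54.2 TPM in the controls (log2 change 0.80, SE 0.10, limma adjusted p = 0.0316). It was also higher over 4 libraries, where transcripts with 99.64% of its TPM gave 133 and 99.7 TPM in the anti-CD71 libraries, against 59.6 and 53.9 TPM in the controls (log2 change 1.01, SE 0.14, limma adjusted p = 0.0388). Over 3 libraries the call was lost under the same 3 alternatives as that of Spry4, with adjusted p from 0.0326 to 0.205. Egr1, a transcription factor induced by ERK and named after its values were seen, had 81.6 TPM in anti-CD71 replicate 2, against 144 and 191 TPM in the controls (log2 change -1.01, limma adjusted p = 0.0562). Over 4 libraries the tested pathway genes numbered 8, and Ier3 was the 1 that was called, higher, against 4.29% of all 1563 genes called and 0.832% called higher.

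**Figure D4:**
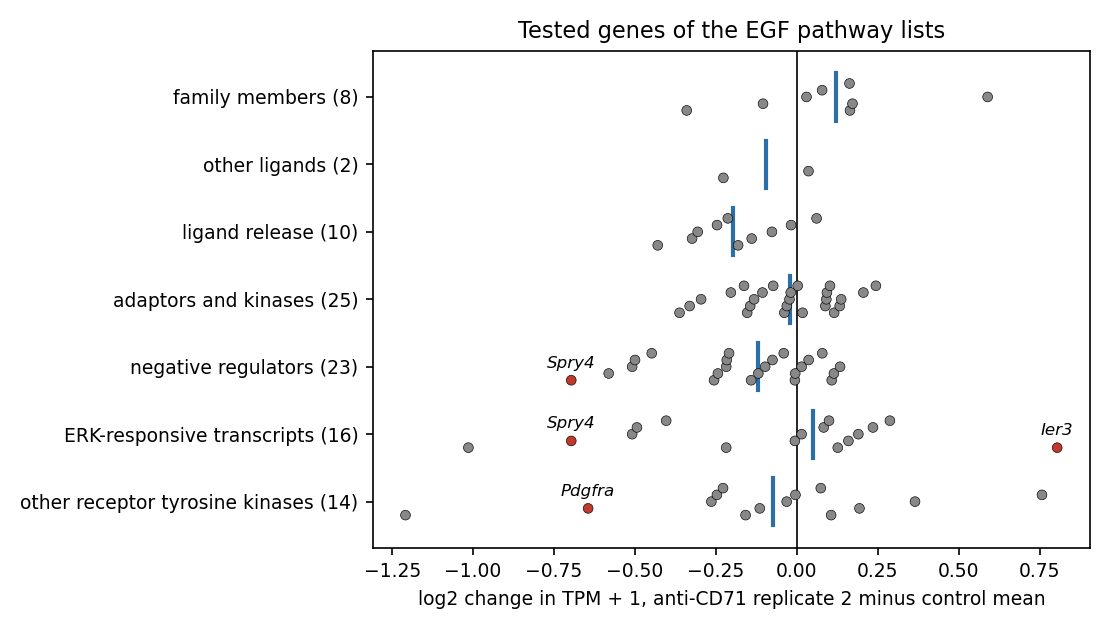
Log2 change of each tested gene in TPM + 1, anti-CD71 replicate 2 minus the control mean, for the family and the 6 pathway lists, with the number of tested genes in brackets. Red points with names were called at an adjusted p under 0.05, grey points were not, and blue bars are list medians. Spry4, in 2 lists, and Pdgfra lie below 0 and Ier3 above it, while the family has no red point.

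Of the other receptor tyrosine kinases, Pdgfra, the receptor for platelet-derived growth factor on fibroblasts, fell to 59.5 TPM in anti-CD71 replicate 2, against 94.4 and 92.8 TPM in the controls (log2 change -0.64, limma adjusted p = 0.0321). It lost its call under the same 3 alternatives, with adjusted p from 0.0327 to 0.128. The median log2 change of the 14 tested receptors was -0.07, against 0.08 for Erbb2, 0.16 for Erbb3 and -0.34 for Egfr. Pdgfrb, named after its values were seen, had the largest absolute log2 change of the 14, at -1.21, and was not called. It had 12.1 TPM in anti-CD71 replicate 2, against 24.2 and 35.2 TPM in the controls. Transcripts with 65.46% of its TPM were listed for all 4 libraries. They gave 10.3 and 7.45 TPM in the anti-CD71 libraries, against 15.5 and 23.85 TPM in the controls, with no test. Met, the hepatocyte growth factor receptor, named after its values were seen, stood at 37.7 TPM in anti-CD71 replicate 2, against 28.5 and 29.6 TPM in the controls (log2 change 0.36, limma adjusted p = 0.0980). Over the transcripts listed for all 4 libraries, which held 47.65% of its TPM, the direction was the opposite. They gave 13.1 and 10.5 TPM in the anti-CD71 libraries, against 17.8 and 17.3 TPM in the controls, with no test.

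The cells behind these transcripts are mixed, and in bulk RNA fewer cells of a type cannot be told apart from less RNA per cell. Defining squamous keratin genes were present in anti-CD71 replicate 2, with 31.4 TPM for Krt5 and 36.4 TPM for Krt14, but in the controls Krt5 was listed at 0 and Krt14 at 0.09 and 0.10 TPM. The simple epithelial keratin gene Krt8 was abundant in each, with 1256 TPM in anti-CD71 replicate 2, against 1132 and 1203 TPM in the controls. The 12 basal keratinocyte and squamous genes summed to 216 TPM in anti-CD71 replicate 2, against 99.4 and 92.2 TPM in the controls, with 11 of 12 above both controls. Most of each control sum was Itgb4, at 93.7 and 87.4 TPM in the controls. Itgb4 was also the 1 gene of this list below both, at 76.5 TPM in anti-CD71 replicate 2. The 11 genes of differentiated epidermis summed to 44.7 TPM in anti-CD71 replicate 2, against 1.70 and 1.95 TPM in the controls, 11 of 11 being above both. The 7 hair follicle genes summed to 214 TPM in anti-CD71 replicate 2, against 0.12 and 0.02 TPM in the controls. In anti-CD71 replicate 1, the follicle gene Krt25 and the epidermal gene Dsg1a were listed at 0, against 60.5 and 2.58 TPM in anti-CD71 replicate 2 and 0 in both controls. Erbb2, Erbb3, Ereg, Btc, Epgn and Tgfa had values above both controls in the same library, where 39.5% of all tested genes lay. The part of epidermal and follicle cells in the values of these family genes was not tested.

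Markers of other cell types that can carry these genes were summed in the same way. The 6 fibroblast genes summed to 463 TPM in anti-CD71 replicate 2, against 531 and 648 TPM in the controls, with 3 of 6 below both, where 42.5% of all tested genes lay. Of the 6, Pdgfra itself was the 1 called, Col1a1, Dcn and Lum lay between the controls, and their part in the values of Egfr and Pdgfra was not tested. The 7 macrophage genes summed to 1559 TPM in anti-CD71 replicate 2, against 3168 and 3955 TPM in the controls, 7 of 7 being below both. The 8 mast cell and basophil genes summed to 173 TPM in anti-CD71 replicate 2, against 105 and 51.2 TPM in the controls, and 7 of 8 lay above both, but 0 of 7 tested were called. Those 7 were tested over 3 libraries, and 2 of them also over 4. There Hdc was called higher (log2 change 1.51, limma adjusted p = 0.0388), where 0.832% of all 1563 genes were. It had 7.04 and 7.42 TPM in the anti-CD71 libraries, against 2.62 and 1.32 TPM in the controls. Cma1 was not called there (log2 change 0.89, limma adjusted p = 0.236). Areg, which mast cells and basophils can also make, lay between the controls. The 6 simple epithelial genes summed to 2153 TPM in anti-CD71 replicate 2, against 1792 and 1886 TPM in the controls. The lymphoid list summed to 259 TPM in anti-CD71 replicate 2, against 262 and 205 TPM in the controls, but most of each sum was Il1rl1, at 240.02 TPM in anti-CD71 replicate 2 and 232 and 173 TPM in the controls. Of its 6 tested genes, 2 were called lower. Over all tested genes 2.39% were called lower. Ncr1, a natural killer cell receptor, had 2.52 TPM in anti-CD71 replicate 2, against 9.53 and 11.5 TPM in the controls (log2 change -1.71, limma adjusted p = 0.0244). Cd3g, a T cell receptor subunit, had 2.00 TPM in anti-CD71 replicate 2, against 5.87 and 5.21 TPM in the controls (log2 change -1.12, limma adjusted p = 0.0411). Both genes were listed in full for all 4 libraries, and over these neither was called. In anti-CD71 replicate 1 Ncr1 had 5.10 TPM and Cd3g 3.23 TPM, each below both controls. The log2 change over 4 libraries was -1.31 for Ncr1 (limma adjusted p = 0.0554) and -0.87 for Cd3g (limma adjusted p = 0.0651). The skeletal muscle list, at 75.2 TPM in anti-CD71 replicate 2, against 115 and 27.7 TPM in the controls, lay between them. Endothelial genes, with 0 of 4 tested called, summed to 49.9 TPM in anti-CD71 replicate 2, against 56.2 and 59.5 TPM in the controls, and adipocyte genes to 110 TPM, against 78.5 and 104 TPM in the controls. Most of each adipocyte sum was Fabp4, at 105 TPM in anti-CD71 replicate 2 and 77.4 and 104 TPM in the controls. Of the adipocyte genes, 5 of 5 lay above both controls, where 39.5% of all tested genes lay. In the other marker lists, Krt16, Sfn, Krt18, Sbsn, S100a8 and S100a9 were called higher over 3 libraries, against 0.476% of all tested genes. Csf1r, Cd68, C1qa, C1qb and C1qc were called lower, against 2.39%.

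The genes most like Btc in pattern over the 3 complete libraries were Fancf, Cdh19, Gclm, Sprr1a and Ccl4, at distances of 0.03 to 0.06 on the log2(TPM + 1) scale after centring on the control mean. They are the 5 closest of all tested genes, picked by that distance, and with 3 libraries a close match says little. Of the 5, 0 were called. Sprr1a, a gene of the cornified envelope, was listed in full for all 4 libraries. It had 20.4 and 32.2 TPM in the anti-CD71 libraries, against 19.5 and 22.4 TPM in the controls, so anti-CD71 replicate 1 lay between the controls (log2 change 0.29, limma adjusted p = 0.430).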

How the data were processed

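RNA from SCC7 tumours was sequenced in 2 anti-CD71 and 2 control libraries, extracted with TRIZOL and prepared by BGI, per the labels' protocols. The authors deposited TPM per RefSeq transcript, a unit read from the values, which sum to the same total in each complete library. The submitters' processing notes name GRCm38.p6. Aligner and quantifier: not given in the sources used here. A RefSeq table of that build matched 58425 of 59881 transcripts, and TPM were summed to 17574 genes. Transcripts without a symbol held 1.42% to 1.55% of TPM. Limma 3.58.1 in R 4.3.3 was run with an intensity trend on log2(TPM + 1). The fit was tried on simulated data whose treated library had the spread of the controls. That trial could not test whether real treated libraries share this spread. Fold changes on that scale understate changes of low genes. For 4 libraries, genes needed 90% of their TPM in transcripts listed for all. Members, lists, filters and tests were chosen with earlier results of these data known. In text, all members are named, with list genes that were called or, if none was, the 2 with the smallest adjusted p, except where stated. Alternatives covered pseudocount, filter, scaling, trend, transcript set, replicate block and left-out libraries.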

Additional observations from a re-analysis of the deposited data

How the results depend on the processing

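The family had 0 calls among 8 tested members, 9 with no filter, under each of 7 alternative settings (2 members at an unadjusted p under 0.05 by limma, 1 with no filter), and all 56 values under these settings kept their direction. Without control replicate 1 Areg turned to 0.263 (-0.473 without control replicate 2), and without control replicate 2 Hbegf turned to -0.051 (0.11 without control replicate 1). These are values with no test.

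Counts over all genes were less stable, and the cause was not tested. Over 3 libraries limma called 343 genes, against 225 with median scaling, 72 with 1 TPM in 1 library, 35 with no trend and 0 with no filter (3401 at an unadjusted p under 0.05). The 3 calls in the pathway lists became 0 with no filter, with 1 TPM in 1 library and with no trend (17, 19 and 17 at an unadjusted p under 0.05). Over 4 libraries limma called 67 genes (13 higher, 54 lower; with median scaling 21 and 36), against 8 with 1 TPM in 1 library, 4 with no trend, 4 with any shared transcript and 1 with no filter. Leaving out 1 library gave 1 to 96: 1 without control replicate 1, 2 without control replicate 2, 33 without anti-CD71 replicate 2 and 96 without anti-CD71 replicate 1. The replicate block gave 3 calls, but same-numbered libraries share only a number, and their deviations did not correlate (r = -0.006 over 1563 genes). Over 3 libraries a block was not possible, as the treated group has 1 library. Median scaling moved the median of all genes by 0.04. The lone treated library and unknown depth limit each member's value.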
